A study of Mus musculus with 4 samples.

Results

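The genes described here are the transcription factors MYC and MYB and their closest relatives. A gene was included if it was MYC or MYB, or if it was one of MYBL1, MYBL2, MYCN, MAX, MXD1, MXI1, MXD4 and MNT and had a probe set that the platform annotation names. A gene with several such probe sets was read from the brightest by mean signal on the 4 arrays. Of the 10 genes, 9 were measured, among 14884 named genes in all: 6 of the MYC and MAX network and 3 of the MYB family. MYCN was not analysed here. MYC and MYB were picked because they had moved in opposite directions in this same comparison, and the other genes were proposed alongside them. The differences of all 9 genes are therefore given as a description, with no test.

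The arrays measured total RNA of SW620, an established cell line from a human colon carcinoma, labelled as sense-strand cDNA. There were 2 groups with 2 arrays each: SW620 cells given 50 nM F5446 for 2 days, and SW620 cells left untreated as the control. F5446 is described by the submitters as a small molecule selective for SUV39H1, an enzyme that methylates lysine 9 of histone H3, and the series asks how that enzyme bears on apoptosis and the cell cycle. The labels name no vehicle for the control and do not say whether the replicates came from separate cultures, so p-values reflect only array-to-array spread, which may be technical. GEO's records list the organism as mouse, but the line is human and the array's annotation holds human genes, so the data were read as human.

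MYC is a basic helix-loop-helix leucine zipper protein that binds DNA as a dimer with MAX and activates genes of ribosome assembly, metabolism and the cell cycle. MXD1, MXI1, MXD4 and MNT also pair with MAX, at the same DNA sites, and repress by recruiting SIN3 corepressors. The MYB proteins bind DNA through conserved repeats. MYB maintains blood progenitors and the proliferating cells of the intestinal crypt, MYBL1 acts in male germ cells, and MYBL2 joins the MuvB complex to switch on genes of late S phase and mitosis. In colon carcinoma, MYC is a well-known target of the Wnt pathway, and MYB is often highly expressed.

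Values are log2 signals, 1 per probe set and array, and differences are F5446 minus control, so 1 log2 unit is a doubling. Signals of different probe sets depend on their probes and were not compared with each other. The F5446 arrays correlated at r = 0.995 across genes and the control arrays at r = 0.994, against 0.943 to 0.945 between an F5446 and a control array; genes are not independent replicates. In limma's test 40.9% of all genes passed at an adjusted p of 0.05, 18.2% higher and 22.7% lower after F5446. That split leaned the other way after centring, with 3420 genes higher and 2735 lower against 2714 and 3372 as deposited. Centring here subtracted from each array the median of the 14884 genes, not that of all probe sets. It moved the median log2 difference from -0.05 to 0.08. SUV39H1 itself had log2 signals of 7.47 and 7.36 in F5446-treated cells, against 9.12 and 9.17 in control cells, a log2 difference of -1.73. Of 10 measured markers of colon epithelium, 6 fell, 2 rose and 2 did not pass in limma's test (median log2 difference -0.63). With each array centred, 5 fell and 2 rose. The mean log2 signal of the 10 was 7.09 and 7.04 in F5446-treated cells, against 7.98 in both control arrays. LGR5, a stem cell receptor, fell 23.9-fold and the villin gene VIL1 fell 14.7-fold, while the adhesion molecule gene CEACAM5 rose 3.80-fold (adjusted p = 2.40e-08, 9.53e-09 and 1.01e-05). Among markers picked after their values were seen, KRT18 stood at 10.69 and 10.71 in F5446-treated cells and 11.80 and 11.82 in control cells, and EPCAM stood at 10.23 and 10.34 in F5446-treated cells and 10.97 and 11.11 in control cells.

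MYC and MXD1, an activator and a repressor that compete for MAX, were both higher after F5446. MYC (probe set 17072669) had log2 signals of 11.59 and 11.66 in F5446-treated cells, against 10.41 and 10.46 in control cells. The groups did not overlap, and the gap between the nearest arrays was 1.12. The means were 11.62 ± 0.049 in F5446-treated cells and 10.43 ± 0.041 in control cells (SD, n = 2 each), a log2 difference of 1.19 ± 0.051 (SE) or 2.28-fold. Among all genes, 550 had a larger rise.

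MXD1 (probe set 16881138), which is known to accumulate as cells leave the cycle and differentiate, differed more than MYC. Its log2 signals were 10.14 and 10.21 in F5446-treated cells, against 7.71 and 7.78 in control cells. The difference was 2.43 ± 0.068 (SE), or 5.39-fold, and 74 genes had a larger rise. MNT (probe set 16839606), the MAX partner present in most dividing and resting cells, had log2 signals of 8.55 and 8.49 in F5446-treated cells, against 7.71 and 7.62 in control cells. Its difference was 0.86 ± 0.080 (SE), or 1.82-fold, the smallest of these 3 genes. On every one of the 4 possible pairings of an F5446 with a control array, the difference lay between 1.12 and 1.25 for MYC, between 2.37 and 2.50 for MXD1 and between 0.79 and 0.94 for MNT.

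The shared partner MAX and the other repressors measured had small differences. MAX (probe set 16793901) stood at 8.60 and 8.63 in F5446-treated cells and at 8.48 and 8.56 in control cells, a log2 difference of 0.09 ± 0.072 (SE). MXD4 (probe set 16973708) stood at 6.17 and 6.16 in F5446-treated cells and at 6.08 and 6.14 in control cells, a difference of 0.05 ± 0.11 (SE). The nearest arrays of the groups were 0.038 apart for MAX and 0.019 apart for MXD4. MXI1 was read by 2 probe sets that differed in sign. The brighter one (probe set 16718367) stood at 5.44 and 5.77 in F5446-treated cells and at 5.78 and 5.79 in control cells, a difference of -0.18 ± 0.15 (SE). The dimmer one (probe set 16709108) stood at 5.60 and 5.72 in F5446-treated cells and at 5.67 and 5.46 in control cells, a difference of 0.09 with overlapping groups. Neither value of MXI1 thus gives it a direction.

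**Figure D1:**
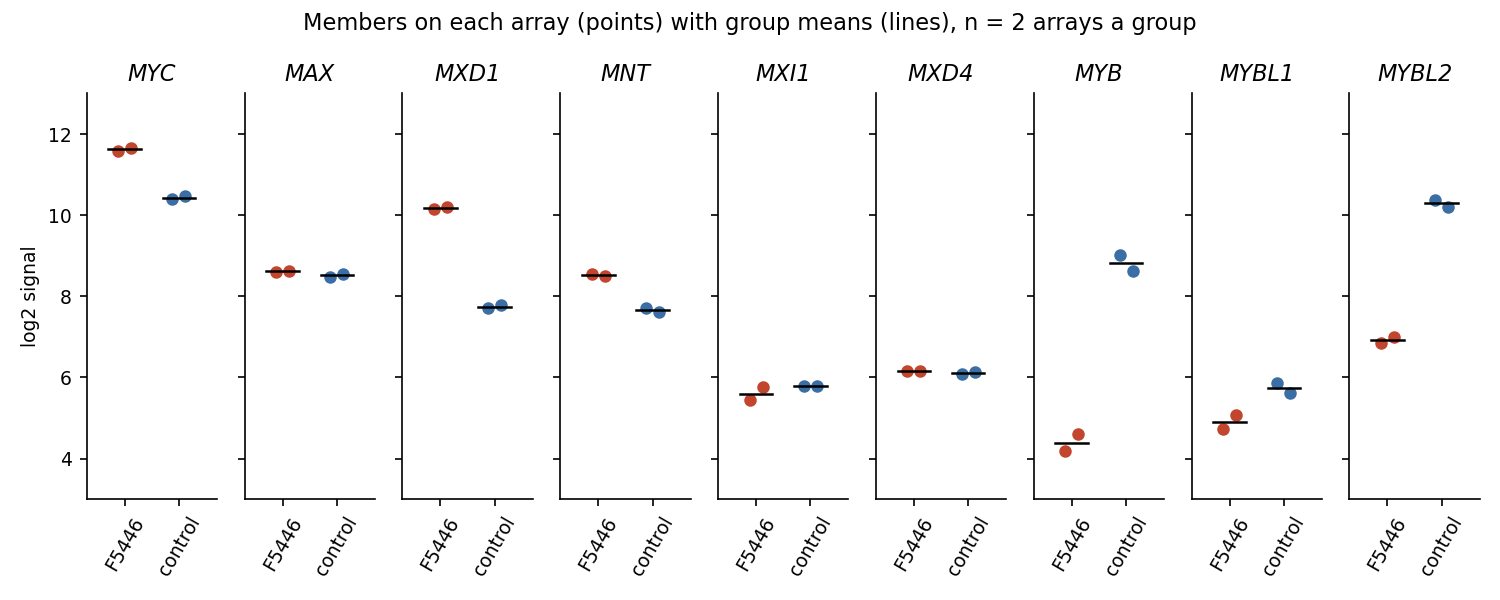
Log2 signal (vertical axis) of the 9 genes on each array, with F5446 left of control; points are arrays and lines are the means of 2 arrays. MYC, MXD1 and MNT sit higher in F5446-treated cells, MYB, MYBL1 and MYBL2 sit lower, and MAX, MXI1 and MXD4 differ little; levels are not comparable between genes.

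All 3 MYB family genes were lower after F5446, by very different amounts. MYB (probe set 17012804) had log2 signals of 4.17 and 4.60 in F5446-treated cells, against 9.01 and 8.62 in control cells. The groups lay 4.02 apart at their nearest arrays. The means were 4.39 ± 0.30 in F5446-treated cells and 8.82 ± 0.28 in control cells (SD, n = 2 each), a log2 difference of -4.43 ± 0.17 (SE), or 21.6-fold lower. Only 4 of the 14884 genes had a larger fall. The treated signals straddled 4.43, the median of all probe sets on the array, and the table has no detection calls, so the true fold may be larger than the one measured. The replicate arrays of MYB were also the furthest apart among the 9 genes in both groups, by 0.42 for F5446 and 0.39 for control, both small beside the gap between the groups.

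MYBL2 (probe set 16913957), the family member tied to cell division, had log2 signals of 6.86 and 7.00 in F5446-treated cells, against 10.38 and 10.21 in control cells. Its difference was -3.37 ± 0.087 (SE), or 10.3-fold lower, and 46 genes had a larger fall. MYBL1 (probe set 17077826) had log2 signals of 4.74 and 5.07 in F5446-treated cells, against 5.86 and 5.61 in control cells. Its difference of -0.83 ± 0.17 (SE), or 1.78-fold lower, was the smallest of the 3, and 1447 genes had a larger fall. In bulk RNA, fewer cells that express a gene and less RNA of it per cell cannot be told apart.

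In all, the F5446 arrays lay beyond both control arrays for 9 of the 9 genes, where 66.2% of all genes did so: 5 were higher, against 28.4% of all genes, and 4 were lower, against 37.7% of all genes. That count includes the 3 genes with small differences. A difference of at least 1 log2 unit was reached by 4 of the 9 genes (MYC, MXD1, MYB and MYBL2), where 12.7% of all genes reached it. Since MYC and MYB were chosen on these values, nothing is read from either count.

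**Figure D2:**
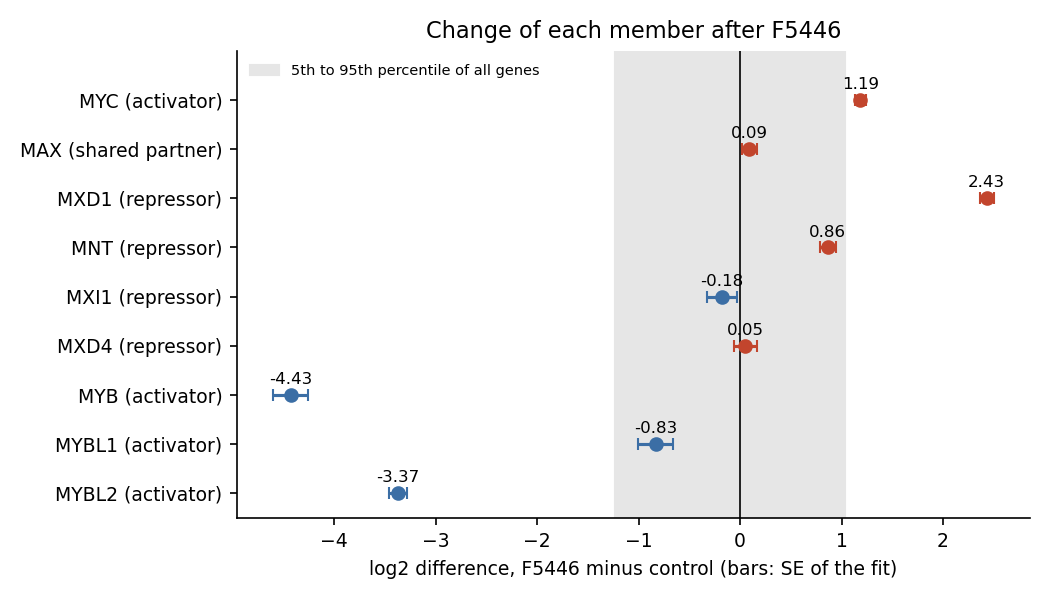
Log2 difference, F5446 minus control (horizontal axis), of each of the 9 genes with its SE from the fit to 4 arrays; the grey band spans the middle of all 14884 genes, from the 5th to the 95th percentile. MYC (1.19) and MXD1 (2.43) lie above the band, MYB (-4.43) and MYBL2 (-3.37) below it, and the other 5 genes within it.

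The genes whose 4 values were most like those of MYC were PNRC1, a nuclear receptor coactivator, CRY2, a repressor of the circadian clock, and ZBTB21, a zinc finger factor. After each gene was centred on its own mean, the root mean square difference from MYC over the 4 arrays was 0.022, 0.024 and 0.024 log2 units. Their log2 differences between the groups were 1.14 for PNRC1, 1.18 for CRY2 and 1.19 for ZBTB21. The genes nearest to MYB were HMMR, a hyaluronan receptor also located at the mitotic spindle, MME, the cell-surface peptidase neprilysin, and GFRA3, a receptor of the GDNF family. They lay further off, at 0.18, 0.23 and 0.25 log2 units, and their differences were -4.43, -4.25 and -4.05. With 4 arrays in 2 groups, such likeness mostly restates a similar difference between the groups.

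The remaining results concern genes around and downstream of these factors, taken from lists of textbook partners and targets that hold none of the 9 genes. For these genes the test is limma's, with p adjusted over all 14884 genes. The counts are set beside the 18.2% higher and 22.7% lower over all genes, and no test of a list as a whole was made. The lists were written with earlier results of these data known, so a count is a description.

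Among MYC's cofactors and the further MAX-network genes, 20 of 25 were measured, of which 7 rose, 8 fell and 5 did not pass, with a median log2 difference of -0.05, the same as over all genes. The ATPases RUVBL1 and RUVBL2, which sit in the chromatin complexes that MYC recruits, fell 3.11-fold and 2.22-fold (limma adjusted p = 9.06e-07 and 1.36e-06). RUVBL1 had log2 signals of 6.48 and 6.50 in F5446-treated cells, against 8.13 and 8.12 in control cells. EP400, the large subunit of one of those complexes, rose 1.98-fold (adjusted p = 3.01e-05). MXD3, SIN3B and SIN3A were picked after their values were seen. MXD3, the MXD repressor found in S phase cells, fell 1.57-fold (log2 difference -0.65 ± 0.097, SE; adjusted p = 0.00051), in the direction opposite to MXD1. Its call was lost with the mean of its probe sets, at an adjusted p of 0.068, within a range of 0.00020 to 0.068. The corepressor SIN3B rose 1.62-fold (adjusted p = 0.00031). SIN3A had log2 signals of 9.61 and 9.56 in F5446-treated cells and of 9.60 and 9.56 in control cells, a difference of 0.0037 ± 0.060 (SE).

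Of the factors that set the lifetime of the MYC protein, 17 of 29 were measured; 5 rose, 9 fell and 3 did not pass (median -0.45). The kinase gene PIM1, whose product phosphorylates and stabilises MYC, had log2 signals of 8.94 and 9.08 in F5446-treated cells, against 5.21 and 5.76 in control cells. It rose 11.5-fold (adjusted p = 3.76e-07). PLK1 and CIP2A, which also protect MYC from degradation, fell 10.8-fold and 5.50-fold (adjusted p = 9.53e-09 and 1.02e-07). Chosen after their values were seen, AURKA, a kinase known to shield N-MYC, fell 4.83-fold, USP28, a deubiquitinase of MYC, fell 2.11-fold, and FBXO32, the F-box protein atrogin-1, rose 4.11-fold (adjusted p = 2.60e-07, 8.14e-06 and 1.98e-06). PLK1 and AURKA are themselves genes of mitosis and stand on the MYBL2 target list as well. The protein itself was not measured.

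Of the regulators of MYC transcription and mRNA, 24 of 36 were measured; 7 rose, 8 fell and 9 did not pass, with a median of -0.03. E2F1, an activator of S phase genes that also binds the MYC promoter, fell 2.42-fold. CDK7, the kinase of the general factor TFIIH, rose 2.26-fold (adjusted p = 2.49e-05 and 3.85e-06). SMAD4, the common mediator of TGF-beta signals, fell 2.33-fold (adjusted p = 0.0020). Its log2 signals were 3.95 and 3.31 in F5446-treated cells, under the median of all probe sets, and 4.98 and 4.72 in control cells. Chosen after their values were seen, CTCF, which binds upstream of MYC, fell 2.06-fold, STAT3 rose 1.69-fold and RELA rose 1.73-fold (adjusted p = 5.50e-07, 9.29e-05 and 1.36e-05).

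**Figure D3:**
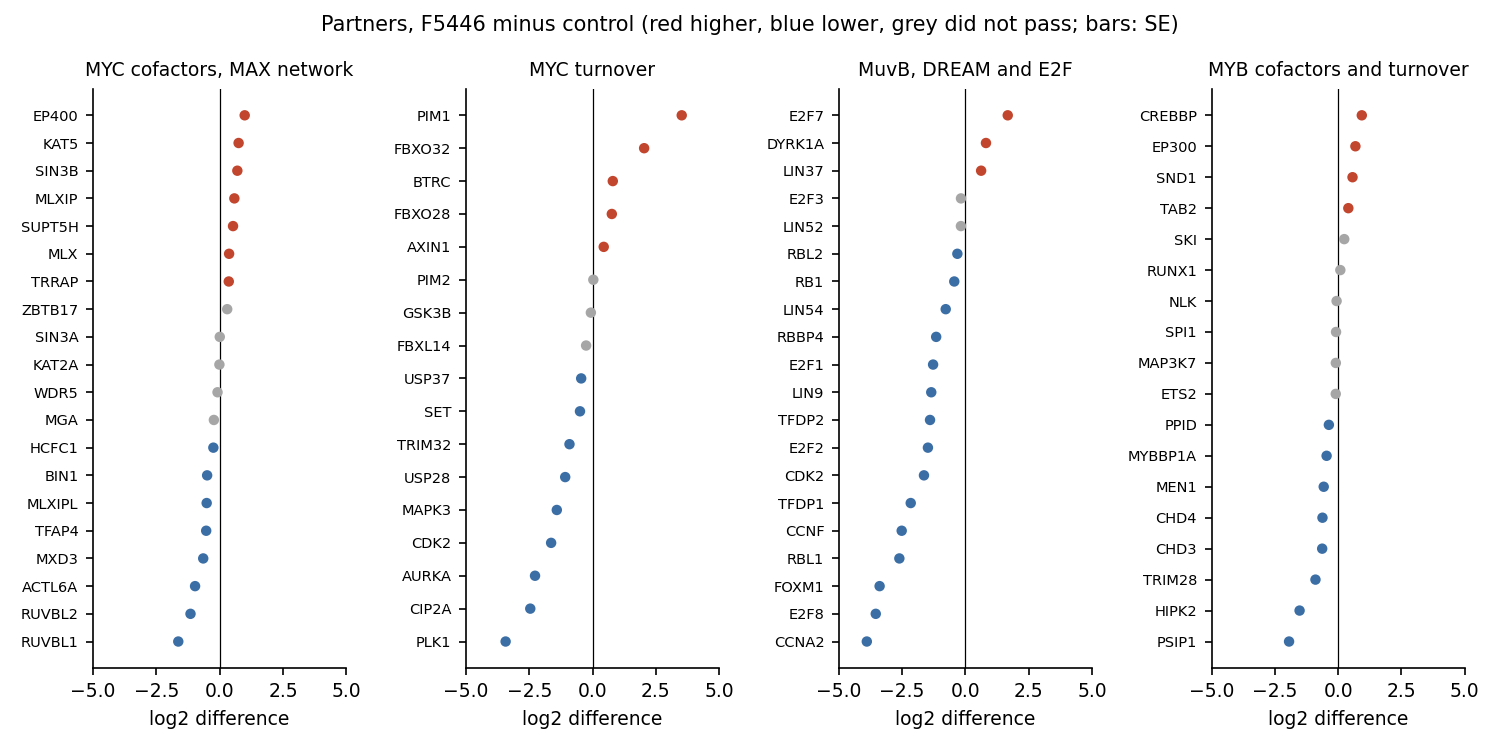
Log2 difference, F5446 minus control (horizontal axes), of every measured gene of 4 lists of partners; red passed higher, blue passed lower, grey did not pass, and the SE bars are mostly shorter than the points. PIM1 (3.52) is the highest point, and PLK1 (-3.43), E2F8 (-3.54) and CCNA2 (-3.89) are the lowest.

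The genes that MYC is known to activate were more often lower than higher after F5446. Over the 4 lists of such genes together, 95 were measured; 10 rose, 63 fell and 22 did not pass, with a median log2 difference of -0.42, against -0.05 over all 14884 genes. The cell cycle list moved most. Of its 27 measured genes 24 fell and 0 rose in limma's test (median -1.66), where 22.7% of all genes fell; at an unadjusted p of 0.05 also 24 fell and 0 rose. Without it, 68 genes remained, of which 10 rose and 39 fell (median -0.27). Of the 27 genes, 13 stand on another list too, and of the other 14 genes 12 fell.

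CCNA2, which encodes cyclin A2, had log2 signals of 6.42 and 5.90 in F5446-treated cells, against 10.00 and 10.11 in control cells. It fell 14.9-fold (adjusted p = 1.28e-07). BIRC5, which encodes survivin, fell 14.6-fold (adjusted p = 4.52e-07), beside PLK1. Picked after their values were seen, the direct MYC targets CDK4 and CDC25A fell 2.60-fold and 1.92-fold (adjusted p = 1.36e-06 and 2.79e-05). CCND2, which encodes cyclin D2, stood at 4.74 and 4.69 in F5446-treated cells and at 4.96 and 4.71 in control cells and did not pass (log2 difference -0.12 ± 0.16, SE). No gene of this list was called higher by limma under any setting tried.

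The nucleolar and ribosome assembly genes were divided. Of 30 measured, 7 rose, 13 fell and 10 did not pass, with a median of -0.18. With each array centred, 11 rose and 10 fell, so the balance of this list depends on the scaling, and without the intensity trend in limma 8 fell. GRWD1, a ribosome assembly chaperone, fell 2.25-fold, MRTO4, a nucleolar assembly factor, 2.11-fold, and BOP1, which processes ribosomal RNA, 1.96-fold (adjusted p = 1.42e-06, 1.87e-06 and 2.08e-05). FBL, RRN3 and NCL were chosen after their values were seen. FBL, the methyltransferase fibrillarin, fell 1.73-fold, and RRN3, which brings RNA polymerase I to its promoters, rose 1.68-fold (adjusted p = 2.97e-06 and 2.29e-05). NCL, which encodes nucleolin, had log2 signals of 9.17 and 9.24 in F5446-treated cells and of 9.40 and 9.28 in control cells and did not pass (log2 difference -0.14 ± 0.069, SE; adjusted p = 0.15).

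Of 24 measured metabolic targets 16 fell, 3 rose and 5 did not pass (median -0.44); with each array centred, 13 fell and 5 rose. TYMS, which encodes thymidylate synthase and is also a gene of S phase, fell 14.7-fold, SHMT1 of the folate cycle 4.64-fold, and DCTPP1, which clears unwanted nucleotides, 4.60-fold (adjusted p = 1.66e-07, 5.77e-07 and 2.97e-08). ODC1, the textbook MYC target that starts polyamine synthesis, had log2 signals of 12.40 and 12.47 in F5446-treated cells, against 11.55 and 11.64 in control cells. It rose 1.79-fold (adjusted p = 1.23e-06). SRM, the spermidine synthase of the same pathway, stood at 11.10 and 10.97 in F5446-treated cells, against 11.97 and 11.89 in control cells. It fell 1.86-fold (adjusted p = 2.15e-06). LDHA, which encodes lactate dehydrogenase A, fell 1.41-fold (adjusted p = 0.0015). ODC1, SRM and LDHA were chosen after their values were seen.

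Among 14 measured targets of translation, RNA processing and chaperoning, 10 fell and 0 rose in limma's test (median -0.39). The counts were the same at an unadjusted p of 0.05, while with each array centred 8 fell and 1 rose. Without the intensity trend in limma 7 fell and 0 rose, and with all probe sets tested the counts were also 7 and 0. TOMM40, the import channel of mitochondria, fell 2.10-fold, the splicing factor gene SRSF1 1.79-fold, and PHB1, which encodes prohibitin, 1.63-fold (adjusted p = 4.45e-07, 1.38e-06 and 0.00060).

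Genes that MYC is known to repress were more often higher. Of 13 measured, out of 27 listed, 7 rose, 2 fell and 4 did not pass (median 0.39). DDIT3, which encodes the stress factor CHOP, rose 7.52-fold and NDRG1 rose 5.05-fold, whereas THBS1, which encodes thrombospondin 1, fell 8.74-fold (adjusted p = 3.20e-06, 9.84e-07 and 3.73e-08). Also chosen after their values were seen, HBP1, a repressor of cell cycle genes, rose 4.60-fold, and the cyclin G2 gene CCNG2 rose 2.79-fold (adjusted p = 2.09e-06 and 2.11e-05). The control signals of HBP1, 4.30 and 4.25, were under the median of all probe sets, so its fold is uncertain. Among the 7 genes that rose, TSC2 lost its call in some of the alternative settings. The other fall was TXNIP, at 8.72 and 8.80 in F5446-treated cells and 9.10 and 8.95 in control cells, a log2 difference of -0.26 ± 0.078 (SE, adjusted p = 0.024). Its call was lost in 7 of 13 alternative settings, among them those without control replicate 1, without F5446 replicate 1 and without F5446 replicate 2, over a range of 0.013 to 0.21; only THBS1 of this list then fell. CDKN1A was not analysed here.

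**Figure D4:**
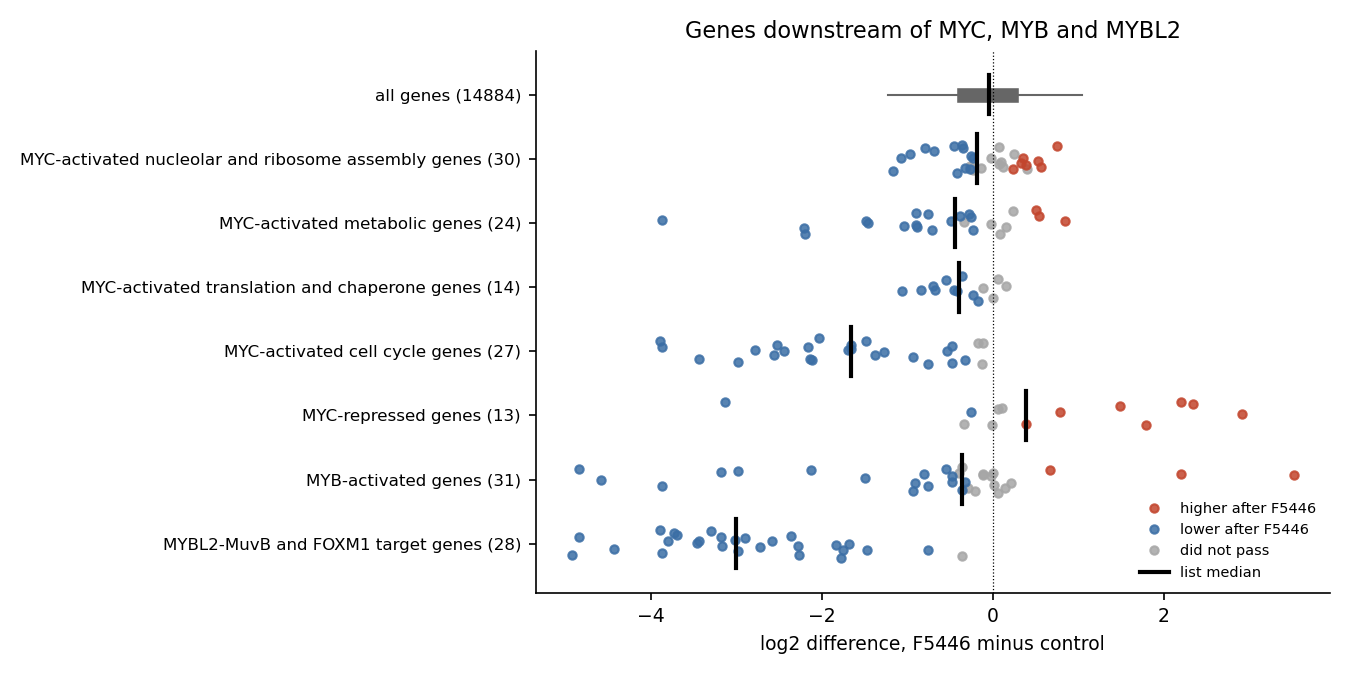
Log2 difference, F5446 minus control (horizontal axis), of the measured genes of 7 target lists; red passed higher, blue passed lower, grey did not pass, and the black line is the list median. For all 14884 genes the thick bar spans the quartiles and the thin line the 5th to 95th percentile; the MYBL2 target list (median -3.00) lies furthest to the left, and the MYC-repressed list (median 0.39) to the right.

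Genes known as targets of MYB were grouped by whether they are also on the MYC cell cycle or the MYBL2 list. Of 31 measured genes, 16 fell, 3 rose and 12 did not pass, with a median of -0.37. The 7 genes that are also on the MYC cell cycle or the MYBL2 list all passed as lower, with a median of -2.98, but the calls of CCNE1 and TERT were lost in 7 of 13 alternative settings each, at adjusted p up to 0.17 for both. Log2 differences of the 7 ran from -0.33 for CCNE1 and -0.48 for TERT to -4.84 for TOP2A. Of the other 24 genes, 9 fell and 3 rose (median -0.25), where 22.7% and 18.2% of all genes did. Among those 9, the calls of LEF1, IGF1R and GATA3 were lost in some of the alternative settings. Log2 differences of the 24 ran from -4.58 for LGR5 to 3.52 for SNAI2, so the 2 groups overlap. TOP2A, which encodes topoisomerase II alpha, fell 28.7-fold, LGR5, the receptor that marks crypt stem cells, fell 23.9-fold, and BIRC5 is described above (adjusted p = 6.85e-09 for TOP2A and 2.40e-08 for LGR5). LGR5 had log2 signals of 5.36 and 5.05 in F5446-treated cells, against 9.85 and 9.71 in control cells. ADA, which encodes adenosine deaminase and was chosen after its value was seen, fell 4.38-fold (adjusted p = 2.02e-07).

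Several classical MYB targets did not follow that direction. SNAI2, which encodes the repressor SLUG, stood at 11.67 and 11.82 in F5446-treated cells, against 8.24 and 8.21 in control cells. It rose 11.4-fold (adjusted p = 9.53e-09). BCL2, the survival gene, had log2 signals of 4.95 and 5.41 in F5446-treated cells and of 5.18 and 5.06 in control cells and did not pass (log2 difference 0.06 ± 0.18, SE). Both were chosen after their values were seen. Of the 31 genes, 8 were under the median of all probe sets on all 4 arrays. Of those 8, 0 passed in limma and 1 had an unadjusted p under 0.05.

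MYB's cofactors moved in both directions. Of 18 measured, 4 rose, 8 fell and 6 did not pass (median -0.10). CREBBP, the acetyltransferase CBP through which MYB activates, rose 1.91-fold, and PSIP1, which links MYB to the MLL complex, fell 3.84-fold. HIPK2, a kinase that promotes degradation of MYB, had log2 signals of 9.26 and 8.98 in F5446-treated cells, against 10.63 and 10.66 in control cells. It fell 2.88-fold (adjusted p = 6.55e-06 for CREBBP, 4.14e-07 for PSIP1 and 1.31e-06 for HIPK2). EP300, the acetyltransferase p300, and MEN1, the scaffold menin, were chosen after their values were seen. EP300 rose 1.60-fold and MEN1 fell 1.49-fold (adjusted p = 1.03e-05 and 0.00016).

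Most partners of MYBL2 were lower too. Of 20 measured genes of the MuvB, DREAM and E2F group, 15 fell, 3 rose and 2 did not pass (median -1.31). FOXM1, the factor that follows MYBL2 onto MuvB, had log2 signals of 6.33 and 6.27 in F5446-treated cells, against 9.70 and 9.68 in control cells. It fell 10.5-fold (adjusted p = 1.46e-08). E2F8, a repressing E2F, fell 11.6-fold (adjusted p = 4.13e-08), and CCNA2, the cyclin that activates MYBL2, is described above. The 3 genes that rose, named after their values were seen, were LIN37 of the MuvB core by 1.54-fold, E2F7, a repressing E2F like E2F8, by 3.19-fold, and DYRK1A, the kinase that assembles the repressive DREAM form, by 1.76-fold (adjusted p = 0.00019, 2.92e-07 and 9.71e-05).

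Of 28 measured targets of MYBL2-MuvB and FOXM1, 27 fell and 0 rose in limma's test, with a median of -3.00, and at an unadjusted p of 0.05 28 fell and 0 rose; PTTG1, which encodes securin, did not pass (log2 difference -0.36 ± 0.15, SE; adjusted p = 0.085). KIF20A, a kinesin of cytokinesis, fell 30.4-fold, ahead of TOP2A, and HMMR fell 21.5-fold (adjusted p = 9.53e-09 and 1.03e-08). KIF20A had log2 signals of 4.73 and 4.76 in F5446-treated cells, against 9.57 and 9.77 in control cells. The list holds genes of dividing cells by its nature, and the part of MYBL2 in these falls was not tested. The count of 27 held without each of the 4 arrays in turn.

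Probe sets for microRNA loci tied to MYC or MYB read precursor or host transcripts rather than mature microRNAs. Of 27 measured, 7 rose, 1 fell and 19 did not pass (median 0.14), and 12 were dim, under the median of all probe sets, on all 4 arrays. With loci left out whose mean over the 4 arrays was under that median, 3 rose and 0 fell. With all probe sets tested, 4 rose and 0 fell. MIR29A rose 10.4-fold, MIRLET7F1, a let-7 locus, rose 5.80-fold and MIR200C rose 2.01-fold (adjusted p = 3.37e-07, 0.00025 and 0.0017). Of 8 let-7 loci, whose product is known to repress MYC, 3 rose and 0 fell in limma, or 4 and 0 at an unadjusted p of 0.05. One of these calls, MIRLET7G, was lost in 5 of 13 alternative settings, at an adjusted p up to 0.18. MIRLET7F1 had log2 signals of 5.51 and 5.24 in F5446-treated cells, against 3.44 and 2.23 in control cells. Its control signals were under the median of all probe sets and far apart, so its fold is uncertain. The locus drops out, as MIR200C does, when loci with a mean under that median are left out. MIR150 and MIR17HG, like MIRLET7G, were chosen after their values were seen. MIR150, whose product represses MYB in lymphocytes, stood at 4.63 and 4.44 in F5446-treated cells and at 4.36 and 4.42 in control cells, a difference of 0.14 ± 0.16 (SE). MIR17HG, the host of a MYC-activated cluster, had a difference of 0.04 ± 0.20 (SE). Only 4 loci rose without F5446 replicate 1. Without control replicate 1 or without F5446 replicate 2 the count of falls was 0, and without control replicate 2 it was 2.

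Few markers of other cell types had a named probe set. Of 11 immune markers 4 were measured, and 2 fell in limma's test, PRF1 by 6.08-fold and LYZ by 3.45-fold (adjusted p = 4.51e-08 and 5.80e-06). Their mean log2 signal was 5.14 and 5.11 in F5446-treated cells, against 6.21 and 6.15 in control cells. Of 9 stromal markers 4 were measured, and LUM fell 8.12-fold (adjusted p = 7.19e-07). The mean of the stromal markers was 3.50 and 3.58 in F5446-treated cells, against 4.16 and 4.15 in control cells; the other 3 did not pass, all 3 were dim on every array, and the median log2 difference of the 4 was 0.07. The part of such markers in the results on MYC and MYB was not tested.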

How the data were processed

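Single-colour oligonucleotide arrays gave 53617 probe sets on each of 4 arrays. The authors deposited values read here as log2 signal. The scale is not stated; it was inferred from a range of 0.710 to 13.8, whose top lies above the natural log of a 16-bit range (11.09) and under its log2 (16). Partek is the 1 program listed per the submitters' processing notes. The treatment of background, scaling and probe set summary was not given in the sources used here. Over all probe sets, array medians were 4.43 and 4.44 for F5446 and 4.40 and 4.41 for control. Centring did not use these values but the median of the 14884 genes on each array. The number of arrays limits precision.

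Platform annotation names 16098 probe sets with 1 gene each and leaves 37519 unnamed here. Tests used limma 3.58.1 under R 4.3.3: lmFit with treatment alone in the model, and eBayes with trend, on unchanged values, two-sided, with Benjamini-Hochberg adjustment over 14884 genes and a threshold of 0.05. The fit was also run on simulated data with independent noise, which does not measure its error rate on these arrays. Named from each list were the largest changes that passed without overlap between groups, up to 3. Up to 3 others were picked after their values were seen. CCNE1, TERT, LEF1, IGF1R, GATA3 and TSC2 were named in addition for their lost calls. The 3 genes nearest to MYC and to MYB were named for their likeness. Members and lists were chosen with earlier results of these data known. The reference tables supplied are of mouse, so neighbours and sequences of the human genes were not used here. The labels state no pairing, so the replicate number was no term in the model. Replicate 1 minus replicate 2 in F5446 and in control correlated at 0.044 across genes, which cannot show whether the arrays were paired. Alternatives covered scaling, dim genes, variance model, probe sets, a replicate block and left-out arrays.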

Additional observations from a re-analysis of the deposited data

How the results depend on the processing

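Over the 13 alternatives, the log2 difference of MYC ran from 1.15 to 1.31 and that of MYB from -4.64 to -4.22. Both genes were chosen on these values, so the kept signs are a description. With 1 probe set each and groups of equal size, only scaling or a left-out array can change these differences. With arrays centred MYC moved to 1.31, by more than the spread between replicates; centring shifts the median of all genes by 0.13. Without each array in turn MYC ranged from 1.15 to 1.22. The ranges were 2.40 to 2.56 for MXD1, 0.82 to 0.99 for MNT and -3.45 to -3.24 for MYBL2; MYBL1 stayed at or below -0.67, and MAX (0.053 to 0.22), MXD4 (0.023 to 0.22) and MXI1 (-0.35 to -0.014) stayed small.

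With all probe sets tested, 6274 were higher and 5483 lower. With arrays centred, 11 nucleolar, 5 metabolic and 1 translation genes rose, and 1 MYC-repressed gene fell. Without an intensity trend 8 nucleolar genes and 1 MYC-repressed gene fell; after averaging probe sets, or with all of them tested, also 1. Without single arrays, 1 to 2 MYC-repressed genes fell and 0 to 1 translation genes rose. With genes on another list left out, a setting chosen after seeing the data, 12 MYC cell cycle genes and 7 MYB-activated genes fell. Of the microRNA loci 3 rose and 0 fell with genes left out whose mean was under the median of all probe sets. With the replicate block 2722 genes were higher and 3342 lower. It changed none of these counts by over 1.5 times. The table carries no detection calls, so falls to a dim signal, as for MYB, may be understated.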
